A study of Mus musculus with 3 samples.

Results

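The genes described here encode 10 basic leucine zipper transcription factors of the AP-1 and ATF group: the FOS family members Fos, Fosb, Fosl1 and Fosl2, the JUN family members Jun, Junb and Jund, the stress-induced factor Atf3, and the BATF factors Batf and Batf3. They were listed by name as a gene family, with earlier results of these data known, and make up 10 of the 55536 annotated genes in the tables. The cells were C57BL/6J bone marrow-derived macrophages, grown in culture from marrow progenitors. All cells carried the same history. They were pretreated with lipid A, the part of bacterial lipopolysaccharide that activates the receptor TLR4, at 100 ng/ml for 12 h. The lipid A was washed out for 12 h, and the cells were then given lipid A again at 100 ng/ml for 30 min. RNA of the chromatin fraction, which is enriched for transcripts still being made or processed, was sequenced after ribosomal RNA depletion. There was 1 group of 3 libraries. Cells without lipid A, or given it a single time, were not analysed here, and no level below is therefore a response to it.

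AP-1 is a family of dimers rather than a single protein. FOS proteins cannot form stable dimers with themselves and bind DNA mainly when paired with a JUN protein, whereas JUN proteins can also pair with each other. Fos, Jun, Fosb, Junb and Atf3 are classic immediate-early genes, transcribed within minutes of a stimulus from factors already present in the cell. BATF proteins lack the transactivation domain of FOS, pair with JUN proteins and bind composite elements together with IRF4 or IRF8. ATF3 is known in macrophages as a repressor of several TLR4-induced cytokine genes.

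The libraries held 12401783, 18317179 and 18164629 expected counts on annotated genes in replicates 1, 2 and 3. Replicate 1 was made from 1 µg of RNA, replicate 2 from 250 ng and replicate 3 from 500 ng, so RNA input and replicate cannot be told apart. Replicate 1 was the shallowest library. The labels give the 3 libraries separate biosamples and a shared donor identifier, and p-values measure only the spread between these samples. All 8 macrophage markers, such as Adgre1 and Csf1r, were above 1 TPM, and their summed level was 1086 to 1140 TPM. TPM is transcript abundance corrected for length and scaled to a fixed sum, and it is used here to compare genes. Chromatin RNA holds intronic reads, which are counted only where an annotated transcript covers them. Jun, Jund and the main Junb transcript have 1 exon, so their levels and those of genes with introns are not measured strictly alike. Of 7 T or NK cell markers, 1 was called above 1 TPM: Cd4, with 7.40, 6.54 and 8.05 TPM in replicates 1, 2 and 3. The T or NK markers summed to 6.77 to 8.58 TPM, with Cd3e and Ncr1 at 0. None of the 5 B cell markers was called (summed level 0.09 to 0.35 TPM, Pax5 at 0). None of the 7 neutrophil or mast cell markers was called (0.15 to 1.72 TPM, with S100a8, Ly6g, Mpo and Elane at 0). None of the 6 dendritic cell markers was called (1.86 to 2.85 TPM, with Clec9a highest at 0.98 ± 0.181 TPM). None of the 7 fibroblast, endothelial or epithelial markers was called (1.19 to 3.64 TPM, with Epcam at 0 and Pecam1 at 1.14, 2.08 and 1.55 TPM). These marker levels are from the gene table. The second transcript table gave higher means for some of them, among them 15.4 TPM for Cd3d, against 0.0167 TPM in the gene table, 9.93 TPM for Pecam1, 2.63 TPM for Cd8a and 1.74 TPM for Mpo, which were named after their values were seen.

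Of the 10 genes, 8 had chromatin RNA above 1 TPM, Fosb did not pass the test and Fosl1 had no counts. A level was called above 1 TPM with limma's moderated test on log2(TPM + 0.1), one-sided, with Benjamini-Hochberg adjustment over all 24180 genes with a nonzero value and a threshold of 0.05. Among all genes tested 50.5% were called, and among the 15120 protein-coding genes tested 61.1% were called. At a floor of 5 TPM, 5 members were called (Fos, Jun, Junb, Atf3 and Batf), against 30.5% of all genes tested. The median of the members' mean levels was 31.4 TPM, beside 2.02 TPM over all genes tested and 4.17 TPM over protein-coding genes tested. In RNA from whole cultures, fewer cells making a transcript and less RNA per cell cannot be told apart.

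**Figure D1:**
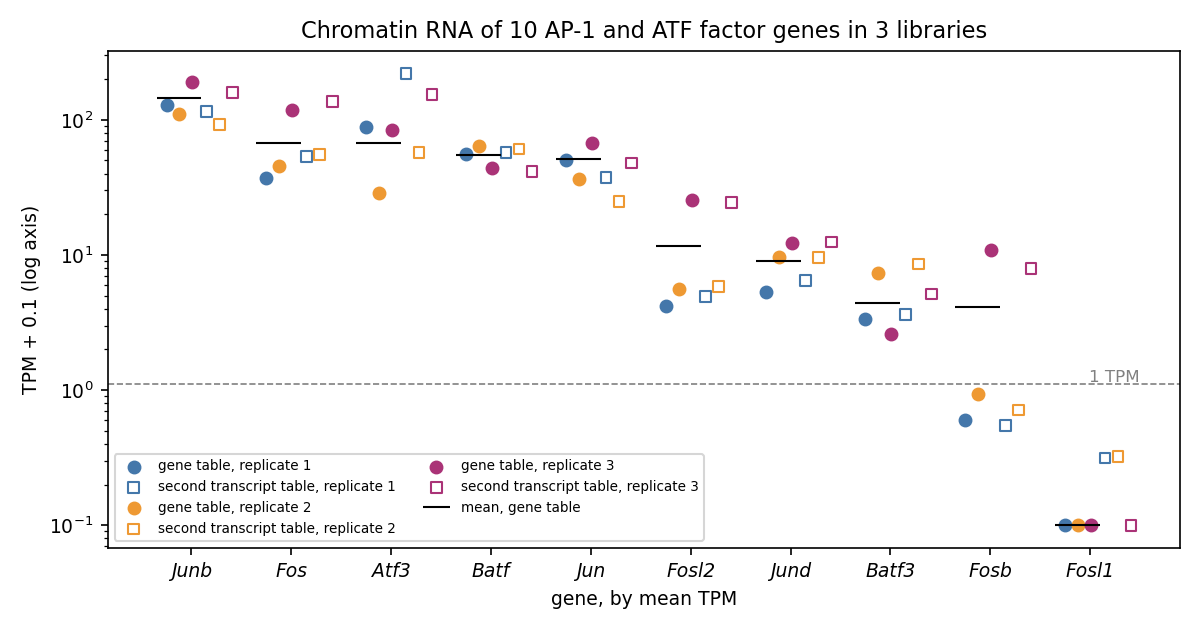
Level of each gene in TPM + 0.1 on a log axis; filled circles are the gene table, open squares the second transcript table, colours the 3 libraries, black bars the mean of the gene table, and the dashed line 1 TPM. Junb lies highest in each library of the gene table, Fosb crosses the dashed line in replicate 3 only, and Fosl1 sits at 0 TPM in the gene table.

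Among the JUN family, Junb, an immediate-early gene whose protein often restrains JUN activity, had the highest level of the 10 genes. It had 128.67, 111.05 and 191.78 TPM in replicates 1, 2 and 3, with a mean of 143.8 ± 42.4 TPM (SD, n = 3). It ranked first among the 10 genes in 3 of 3 libraries. Its level was 6.99 log2 units over the floor of 1 TPM (SE 0.17, limma adjusted p = 1.05e-06). The gene lies at chr8:84974484-84978718 on the minus strand (mm10).

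Jun, which encodes the JUN subunit activated by JNK phosphorylation, had 49.97, 36.13 and 67.21 TPM, with a mean of 51.1 ± 15.6 TPM (SD, n = 3). It was 5.50 log2 units over the floor of 1 TPM (SE 0.18, limma adjusted p = 2.82e-06) and lies at chr4:95049034-95052222 on the minus strand. Junb stood above Jun in every library, by 2.57-fold, 3.07-fold and 2.85-fold. Jund, the JUN family member usually described as constitutively expressed, had 5.18, 9.60 and 12.20 TPM, with a mean of 8.99 ± 3.55 TPM (SD, n = 3). It was 2.96 log2 units over the floor of 1 TPM (SE 0.26, limma adjusted p = 0.000137) and lies at chr8:70698949-70700616 on the plus strand. The 3 Jund values were all below the lowest Jun value.

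Genes on the other strand overlap the JUN genes, and whether the counting used strand is not given in the sources used here, so reads in the shared bases are uncertain. Junos, an antisense gene, shares 689 bases with Jun and had 5.88, 1.49 and 3.28 TPM. Gm11175 lies within Jund over 919 bases and had 1.35, 2.73 and 1.04 TPM. Prdx2, which encodes a peroxiredoxin, shares 351 bases with Junb and had 4.78, 7.86 and 3.88 TPM. These 3 neighbours were each below their member gene in every library of the gene table. In the second transcript table Junos averaged 13.8 TPM, Prdx2 5.61 TPM and Gm11175 0 TPM. Gm12703, which ends 664 bases from Jun, was at 0 in the gene table and averaged 0.501 TPM in the second transcript table.

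Among the FOS family, Fos had the highest level, and replicate 3 was highest for Fos, Fosb and Fosl2. Fos, the prototype immediate-early gene and partner of JUN proteins, had 36.86, 45.49 and 118.74 TPM, with a mean of 67.0 ± 45.0 TPM (SD, n = 3). Its level was 5.73 log2 units over the floor of 1 TPM (SE 0.34, limma adjusted p = 2.66e-05). Replicates 1 and 2 lay close together and replicate 3 stood well above both, so that the mean without replicate 3 was 41.2 TPM. Fos lies at chr12:85473890-85477273 on the plus strand.

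Fosl2, which encodes the FOS-related protein FRA2, had 4.06, 5.52 and 25.29 TPM, with a mean of 11.6 ± 11.9 TPM (SD, n = 3). The level was 2.93 log2 units over the floor of 1 TPM (SE 0.53, limma adjusted p = 0.00305). Without replicate 3 its mean was 4.79 TPM. Fosl2 lies at chr5:32135801-32157842 on the plus strand.

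Fosb, a FOS relative that also gives rise to a truncated protein by alternative splicing, had 0.50, 0.84 and 10.77 TPM, which is 4.04 ± 5.83 TPM (SD, n = 3). The counts behind these levels were 19, 40 and 504. Its log2 level over 1 TPM was 0.73 (SE 0.86, limma adjusted p = 0.392), so it was not called. It was called on CPM with a floor of 1 CPM (2.09 log2 units, limma adjusted p = 0.00213) and after rescaling TPM over protein-coding genes (2.30 log2 units, limma adjusted p = 0.0114). Replicates 1 and 2 were below 1 TPM and replicate 3 above it, and the mean without replicate 3 was 0.67 TPM. Fosb lies at chr7:19302696-19310051 on the minus strand.

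Fosl1, which encodes FRA1, had 0 counts in all 3 libraries. A count of 0 allows up to 0.108 TPM, taking 3 counts over the group, and this limit covers counting error only. In the second transcript table its mean was 0.146 TPM, resting on 1, 1 and 0 estimated counts. Fosl1 lies at chr19:5447547-5455946 on the plus strand. Ccdc85b, a protein-coding gene that shares 2767 bases with it on the other strand, had 0.09, 0.15 and 0.11 TPM in the gene table. Its mean in the second transcript table was 3.70 TPM.

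In TPM, Atf3 and Batf had levels in the range of Fos and Jun, and Batf3 was much lower. Atf3 had 88.18, 28.71 and 84.11 TPM, with a mean of 67.0 ± 33.2 TPM (SD, n = 3). Replicate 2 lay well below the other two. Its level was 5.77 log2 units over the floor of 1 TPM (SE 0.35, limma adjusted p = 2.78e-05). The second transcript table gave a mean of 144 ± 82.1 TPM, 2.15 times that of the gene table. Atf3 lies at chr1:191170296-191218039 on the minus strand. Gm24748, a small RNA gene within it, was at 0 in the gene table and averaged 0.779 TPM in the second transcript table.

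Batf, a partner of JUN proteins best known from lymphocytes and dendritic cells, had 55.46, 63.81 and 44.00 TPM, with a mean of 54.4 ± 9.95 TPM (SD, n = 3). Its level was 5.61 log2 units over the floor of 1 TPM (SE 0.13, limma adjusted p = 8.65e-07). Batf rested on 277, 372 and 283 counts, of which 124, 210 and 124 fell on an annotated retained-intron transcript of 532 bases. The effective length of the gene was 463, 365 and 432 bases in replicates 1, 2 and 3, while its protein-coding transcript has 955 bases. The Batf TPM, its rank and the BATF share below are therefore not those of the protein-coding transcript alone. On CPM, which is not corrected for length, Batf was 4.13 log2 units over a floor of 1 CPM. Jun was 6.82 and Fos 5.86 log2 units over that floor, so Batf was below both on this measure. Batf3, required for a subset of dendritic cells in mice, had 3.24, 7.19 and 2.50 TPM, with a mean of 4.31 ± 2.52 TPM (SD, n = 3). It rested on 20, 46 and 17 counts and was 1.86 log2 units over the floor of 1 TPM (SE 0.33, limma adjusted p = 0.00275). On CPM, with a floor of 1 CPM, Batf3 was not called (0.60 log2 units, limma adjusted p = 0.068). Without replicate 2 the Batf3 mean was 2.87 TPM. The summed dendritic cell markers were 2.00, 1.86 and 2.85 TPM in the same libraries. None of these markers was called above 1 TPM, and which cells made the Batf3 RNA was not tested. Batf lies at chr12:85686669-85709087 and Batf3 at chr1:191097847-191108945, both on the plus strand.

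By mean TPM the order was Junb, Fos, Atf3, Batf, Jun, Fosl2, Jund, Batf3, Fosb and Fosl1. Of the 9 pairs of neighbours in this order, Jun and Fosl2 on the one hand and Fosb and Fosl1 on the other had ranges that did not overlap over the 3 libraries. Each of the other neighbours overlapped, including Junb and Fos, although Junb was the higher of the 2 in each library. In the second transcript table Atf3 ranked first and Junb second by mean TPM. Atf3 was the higher there in replicate 1 only, at 220.4 against 115.4 TPM. Junb was higher in replicate 2, at 92.2 against 57.1 TPM, and in replicate 3, at 158.5 against 154.1 TPM. Several members are neighbours in the genome. Fos and Batf are 209 kb apart on chromosome 12, with Jdp2 as the only protein-coding gene between them, and Atf3 and Batf3 are 61.4 kb apart on chromosome 1, with Fam71a between them.

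Summed by family in the gene table, JUN genes held about the same share of the 10 genes in each library, while the FOS share differed. The JUN family summed to 183.8, 156.8 and 271.2 TPM in replicates 1, 2 and 3, which was 49.4%, 50.8% and 48.7% of the TPM of the 10 genes. The FOS family summed to 41.4, 51.9 and 154.8 TPM, or 11.1%, 16.8% and 27.8%. FOS family TPM was thus 0.225, 0.331 and 0.571 times JUN family TPM. The 2 BATF genes made up 15.8%, 23.0% and 8.35%, and Atf3 made up 23.7%, 9.31% and 15.1%. Fos was below Jun in replicate 1 and above it in replicates 2 and 3, with ratios of 0.738, 1.26 and 1.77. In the second transcript table Fos was above Jun in all 3 libraries, with ratios of 1.42, 2.22 and 2.87, so the direction in replicate 1 differed between the tables. Batf was above Fos in replicates 1 and 2 and below it in replicate 3, with ratios of 1.50, 1.40 and 0.371. The JUN family summed to 159.2, 126.6 and 218.6 TPM in the second transcript table, beside totals of 498.8, 314.7 and 588.1 TPM. The JUN share was less even there, and Atf3 alone had 220.4, 57.1 and 154.1 TPM. With 1 group, none of these differences between libraries has a replicate check. The order of genes and these shares and ratios also carry the limit on intronic reads given above.

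**Figure D2:**
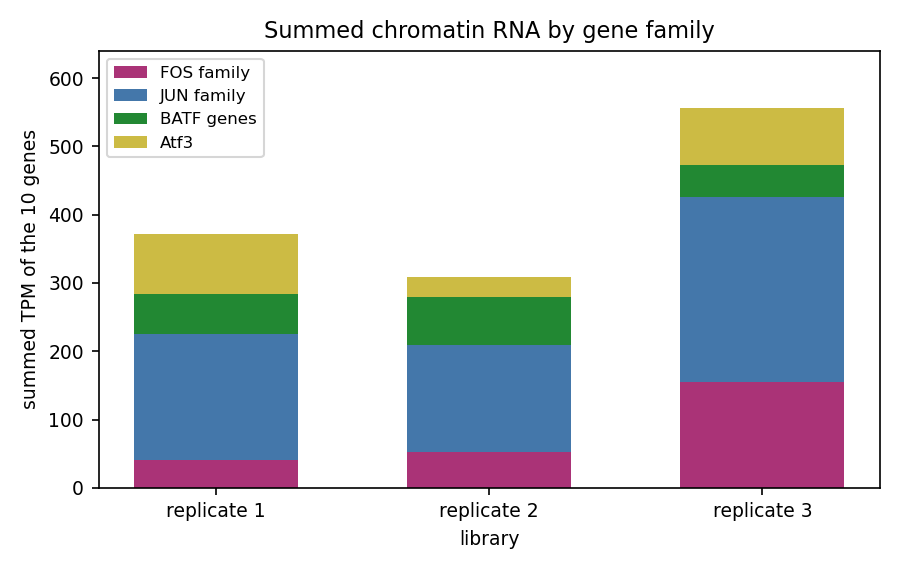
Summed TPM of the 10 genes in each library of the gene table, stacked by family. The total was 372, 308 and 557 TPM in replicates 1, 2 and 3, and the FOS segment was 41.4, 51.9 and 154.8 TPM.

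Over all 3 libraries the members' median spread was larger than that of all genes. Of the 10, 9 passed the count filter, and Fosl1, with no counts, did not. The median SD of log2 CPM (counts scaled to a fixed library sum, with TMM factors) was 0.609 over these 9 members and 0.244 over all 14140 genes that passed. The median biological coefficient of variation from edgeR was 0.315 over the members and 0.210 over all genes. Without replicate 2 it was 0.201 over the members and 0.176 over all genes. Without replicate 3 it was 0.232 over the members and 0.245 over all genes, so the larger spread of the members was not seen without that library. This coefficient is drawn strongly toward that of other genes by the estimation. In simulated counts, genes with a true coefficient of 1 got a median of 0.336, and genes with 0.3 got 0.312. Small differences in it therefore do not rank the members against all genes. Fosb had the largest SD of all 14140 genes, at 2.28 log2 units. Fosl2 followed among the members at 1.44, then Atf3 at 0.94, Fos at 0.84, Batf3 at 0.61, Jund at 0.60, Jun at 0.46 and Junb at 0.44. Batf, at 0.22, varied about as much as the median gene.

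Replicate 3 was the highest library for 6 of the 9 members, beside 28.4% of all genes. Relative to the mean of the other 2 libraries, Fosb was 3.92 log2 units higher in replicate 3, the largest such difference of the 14140 genes. Fosl2 was 2.48 higher, and only Fosb, Nr4a1 and Slc7a11 exceeded it. Nr4a1, an immediate-early nuclear receptor gene, and Slc7a11, which encodes a cystine transporter, were 2.93 and 2.64 higher and were named after their values were seen. Fos was 1.45 higher, and 47 genes, 0.332%, exceeded it. Jund, Atf3, Junb and Jun were 0.78, 0.75, 0.71 and 0.66 higher, while Batf was 0.36 and Batf3 0.93 log2 units lower (-0.36 and -0.93). In replicate 2 both Atf3 and Fosb had a log2 difference of -1.63 from the other 2 libraries, and 104 genes, 0.736%, were lower there than Atf3. The part of RNA input and depth in these differences was not tested.

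**Figure D3:**
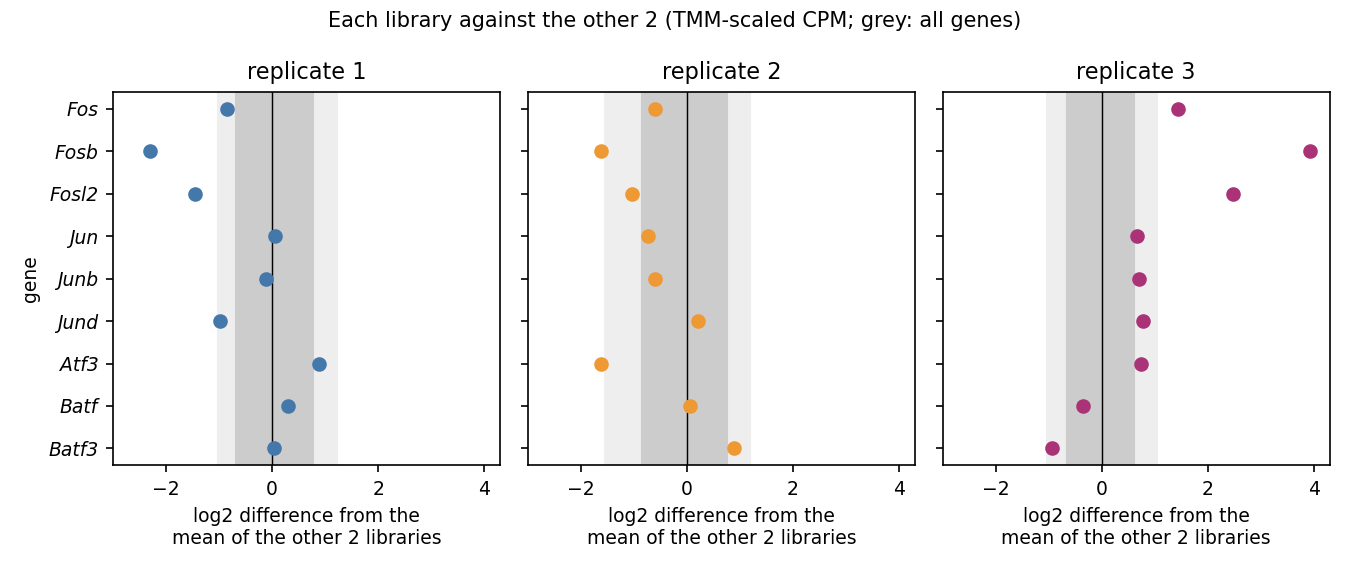
Log2 difference of each library from the mean of the other 2 libraries, on TMM-scaled CPM, for the 9 genes with counts; dark grey spans the 5th to 95th and light grey the 1st to 99th percentile of 14140 genes. Fosb, Fosl2 and Fos lie right of the grey bands in replicate 3, at 3.92, 2.48 and 1.45, and Atf3 and Fosb lie left of them in replicate 2, both at -1.63. In replicate 1 Fosb and Fosl2 lie left of them, at -2.30 and -1.44.

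The genes whose differences across the 3 libraries were most like those of a member were taken from 7132 protein-coding genes with a mean of at least 5 TPM, by Euclidean distance of log2 CPM over the 3 libraries. For Fos they were Srxn1, Mpp7 and Id3, at distances of 0.151 to 0.188. For Atf3 they were Tulp2, Slc38a2 and Icosl, and Slc38a2, an amino acid transporter gene, had 61.68, 18.99 and 55.70 TPM. For Jun they were Rnaset2a, Slc20a1 and Dennd4a, and for Junb they were Coq10b, Zkscan17 and Tnni2. This likeness rests on 3 libraries.

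**Figure D4:**
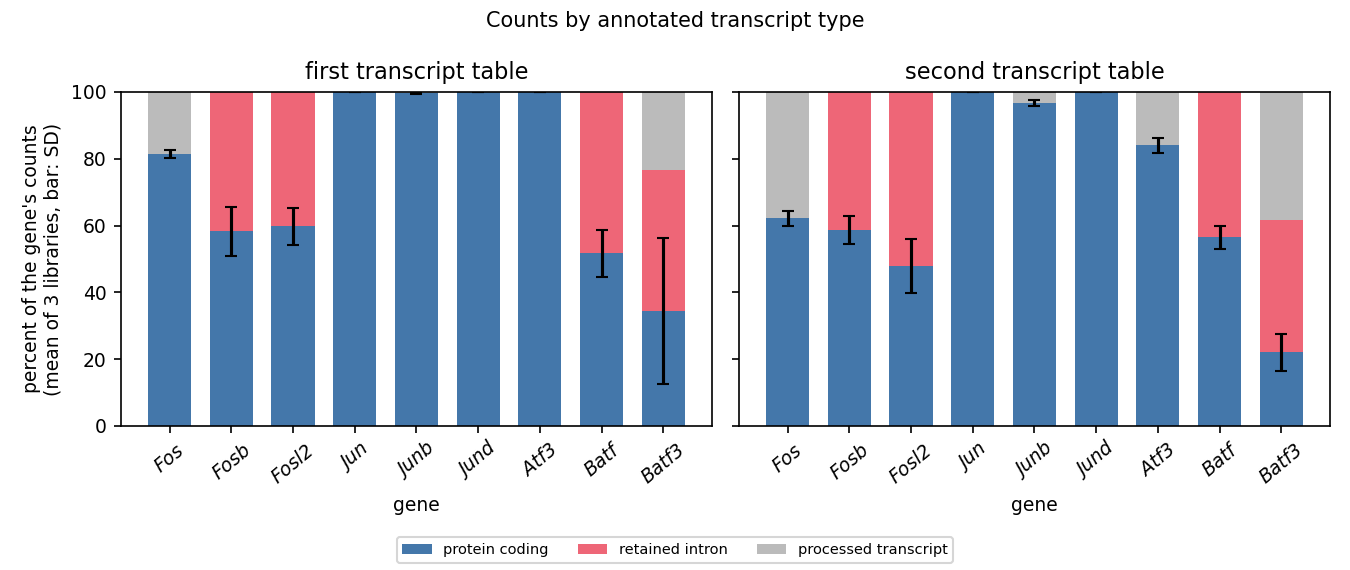
Percent of the counts of each gene assigned to annotated protein-coding, retained-intron and processed transcripts in the 2 transcript tables, as the mean of 3 libraries, with the SD of the protein-coding share. Jun and Jund are wholly protein-coding in both tables, and Batf, Fosb and Fosl2 have large retained-intron shares in both.

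Retained-intron transcripts took a large share of the counts of Batf, Fosb and Fosl2. Chromatin RNA holds unspliced transcripts, and counting on annotated transcripts takes intronic reads only where such a transcript covers them. In the first transcript table the retained-intron share was 48.3 ± 7.04% for Batf, 41.8 ± 7.46% for Fosb and 40.2 ± 5.55% for Fosl2 (SD, n = 3 each). In the second table it was 43.5%, 41.4% and 52.1%. For Batf3 it was 81.0%, 27.0% and 19.1% in replicates 1, 2 and 3, on few counts. Fos had no annotated retained-intron transcript, and its protein-coding transcript took 81.4 ± 1.20% of its counts in the first table and 62.1 ± 2.24% in the second. The rest went to annotated processed transcripts, mainly to 1 of them. Jun and Jund each have 1 annotated transcript with 1 exon, and 1 single-exon transcript took 99.7 ± 0.260% of the Junb counts.

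The level and transcripts of Atf3 also differed between the 2 transcript tables. Its transcript with the distal start, 34.7 kb upstream of the start of the main transcript, took 30.0%, 1.10% and 3.44% of the Atf3 counts in the first table in replicates 1, 2 and 3. In the second table it took 0%, 0% and 0.582%. An Atf3 processed transcript took 0% in the first table and 16.0 ± 2.26% in the second (SD, n = 3). The share on the distal Atf3 start was thus largest in replicate 1 of the first table and below 1% in each library of the second.

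Promoter sequences of Fos, Fosb and Jun are shown because Fos and Fosb, with Fosl2, were the members with the largest differences between replicate 3 and the other libraries, and Jun encodes a partner of FOS proteins. RefSeq windows (GRCm38.p6), 250 bases before to 50 bases after the start, were found for 9 of the 10 members. Each sequence below is the 250 bases before the RefSeq start, 5′ to 3′ on the gene's own strand. Capitals mark matches to a kappaB motif, to the CRE half-site TGACG and to TATAA in Fos, to the kappaB motif and TGACG in Fosb, and to the TRE-like site TGACATCA in Jun.
Fos, chr12:85473640-85473889, plus strand: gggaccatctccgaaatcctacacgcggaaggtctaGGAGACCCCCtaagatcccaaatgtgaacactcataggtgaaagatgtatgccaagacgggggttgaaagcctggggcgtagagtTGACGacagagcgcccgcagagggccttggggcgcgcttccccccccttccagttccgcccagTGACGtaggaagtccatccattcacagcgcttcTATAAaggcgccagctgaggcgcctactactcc
Fosb, chr7:19310046-19310295, minus strand: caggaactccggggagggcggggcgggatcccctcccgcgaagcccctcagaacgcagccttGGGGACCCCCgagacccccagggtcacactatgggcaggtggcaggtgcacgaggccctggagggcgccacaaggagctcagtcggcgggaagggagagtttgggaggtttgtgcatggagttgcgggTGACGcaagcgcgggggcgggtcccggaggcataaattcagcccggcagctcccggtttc
Jun, chr4:95052223-95052472, minus strand: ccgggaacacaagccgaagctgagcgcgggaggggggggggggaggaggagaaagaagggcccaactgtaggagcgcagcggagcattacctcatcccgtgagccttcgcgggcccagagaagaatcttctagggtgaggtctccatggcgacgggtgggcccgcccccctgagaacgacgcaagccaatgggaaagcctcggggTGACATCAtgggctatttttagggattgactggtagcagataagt

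Both strands of all 32851 RefSeq windows were searched with the same motifs. A kappaB motif match was in the windows of 3 of 9 members, Fos at -214 to -205, Fosb at -188 to -179 and Fosl2 at -182 to -172 relative to the start, and in 8.46% of all windows. The Fosl2 window lies inside the longest annotated Fosl2 transcript, whose start is 671 bases further upstream, and its match stands within the 30 bases at chr5:32136281-32136310, plus strand, gatcggggaGGGAGTCCCCCagagctgcca, where capitals mark 2 overlapping matches. The CRE half-site was in 5 of 9 members' windows, Fos, Fosb, Junb, Atf3 and Batf, and in 20.8% of all windows. In Fos it stood at -129 to -125 and -66 to -62, and in Fosb at -60 to -56. The TRE-like site was in the Jun window, at -45 to -38, and in 3.62% of all windows. TATAA was in the windows of Fos, at -33 to -29, and Junb, and in 24.9% of all windows. The full CRE TGACGTCA (1.79% of windows), the TRE TGACTCA (5.20%) and the CArG box (1.63%) matched in 0 of the 9 members' windows. Bases more than 250 before the start were not searched, so sites further upstream would be missed. The RefSeq start differed from the annotated gene start by 1210 bases for Jund, 567 for Batf3 and 34706 for Atf3. The Atf3 window lies near the start of its main transcript, not at the distal start. Presence or absence of a match thus holds for these windows only. The half-site is contained in the full CRE. A match is a run of letters and says nothing of binding. The windows of Fos, Fosb and Fosl2 had 58.7%, 68.3% and 64.7% GC, and the shares are over all windows whatever their GC content. Any link of the kappaB matches to the levels in replicate 3 was not tested.

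Most other genes of the group and its upstream factors were called. Of 13 other AP-1, ATF and CREB family genes, 13 were called above 1 TPM, with a median of 29.2 TPM, beside 61.1% called and a median of 4.17 TPM among protein-coding genes tested. The same background applies to the lists that follow. The highest were Creb5, a CREB-related factor, at 123 ± 37.3 TPM, Batf2, a BATF relative, at 59.1 ± 30.8 TPM, and Atf7, an ATF2 relative, at 56.7 ± 0.482 TPM (SD, n = 3 each). Creb5 was thus in the range of Junb. All 5 MAF genes, whose proteins are related basic leucine zipper factors, were called, with Maf at 60.6 TPM, Mafg at 58.8 TPM and Maff at 19.6 TPM on average.

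Of 13 kinases and promoter factors that act upstream of the immediate-early genes, 13 were called, with a median of 35.8 TPM. Mef2a, a transcription factor that acts on the Jun promoter, averaged 85.1 TPM, and Mapk14, which encodes the kinase p38 alpha, averaged 51.4 TPM. Of the 2 IRF partners of BATF proteins, Irf8 had 58.67, 94.44 and 48.00 TPM and was called, while Irf4 had 0.39, 0.14 and 0.18 TPM and was not (limma adjusted p = 1.00).

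Of 10 textbook AP-1 target genes, 6 were called, 2 were tested and not called and 2 had no counts to test. Their median of 4.69 TPM and their share called were near those of all protein-coding genes tested, 4.17 TPM and 61.1%. Vim, which encodes vimentin, averaged 165 TPM, and Cd44, an adhesion receptor gene, averaged 34.0 TPM. Spp1, which encodes osteopontin, had 146.92, 21.86 and 109.75 TPM. Among the protease genes, Mmp13 averaged 1.75 TPM and was not called (limma adjusted p = 0.183), and Mmp3 and Mmp9 were at 0 in each library. Timp1, a protease inhibitor gene, averaged 0.583 TPM and was not called (limma adjusted p = 1.00). These levels are from the gene table. In the second transcript table Timp1 averaged 3.58 ± 0.921 TPM and the median of the 10 target genes was 7.97 TPM.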

How the data were processed

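Expected counts and TPM per gene and transcript were deposited by the authors, with columns named so per the file headers. A second transcript table, summed here per gene, holds TPM and estimated counts, as deposited. The text deposited beside the samples gives mm10 and annotation release M21. It derives the gene and first transcript tables from transcriptome alignments and the second table directly from the reads. Aligner, tool versions and use of strand: not given in the sources used here.

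The members and lists were chosen with earlier results of these data known. All 10 members are named, and of each other list the 3 highest by mean TPM and those not called. The values of 1 gene that this rule names are not reported here. Rows naming no gene (26345) held 1.04%, 0.425% and 0.401% of the counts in replicates 1, 2 and 3 and were left out. Levels were tested with limma 3.58.1 in R 4.3.3, on log2(TPM + 0.1) in an intercept-only model with a variance trend. Spread was estimated with edgeR 4.0.16 on rounded expected counts, with TMM scaling, and DESeq2 1.42.0 gave size factors only. Depth sets the floor of 3 counts at 0.164 to 0.242 CPM per library, which covers counting error only. The interval columns of TPM in the gene tables were kept as the authors' deposited values of another kind and are not used in tests. Pairs of libraries differed by a chi-square per degree of freedom of 40.7 to 77.0, so none was a copy of another. In a test on simulated data over 24180 genes, 0 of 50 genes at 1 TPM, 44 of 50 at 2 TPM and 50 of 50 at 4 TPM were called. The simulation gave every gene the same spread between libraries and no counting noise. That spread was smaller than the spread of most members, among them Fosb, Fosl2, Atf3, Fos, Batf3 and Jund. The simulation therefore does not show how often such genes would be called. Alternatives were the pseudocount, the floor, the filter, the second table, rescaling over protein-coding genes, CPM, RLE scaling and leaving out each replicate.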

Additional observations from a re-analysis of the deposited data

How the results depend on the processing

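The number of members called above 1 TPM was 8 with a pseudocount of 0.01 or 1, with a count minimum of 10, in the second transcript table, on CPM and without each replicate in turn. It was 9 after rescaling TPM over protein-coding genes, 6 with no filter and 5 at a floor of 5 TPM. The calls on CPM were not the same ones: Fosb was gained at 2.09 and Batf3 was lost at 0.60 log2 units above the floor. Fosb was also called after rescaling, at 2.30. Its log2 value reversed to -1.48 at a floor of 5 TPM and ran from -0.55 without replicate 3 to 1.54 without replicate 1, and that of Batf3 reversed to -0.36 at 5 TPM. Fosl2 (0.72) and Jund (0.75) were not called at 5 TPM.

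With no filter, Fosl2 (2.93) and Batf3 (1.86) kept their values but lost their calls. That fit included 31356 genes at 0 in all libraries, and its variance trend became degenerate, with prior variances from 1.59e-32 to 1.77e+11 and 0.252 prior degrees of freedom, against 0.036 to 6.67 and 2.92 with the filter. Its calls are therefore not a usable check of these genes. It called 10811 genes, the same number as rescaling over protein-coding genes by coincidence, since 8466 were shared.

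Over all genes, 12220 were called above 1 TPM, 7384 at a floor of 5 TPM and 19620 in the second table, and 11708 to 11907 when a replicate was left out. The median BCV of the members, 0.315, was 0.201 to 0.336 when a replicate was left out. Without replicate 3 it was 0.232, beside 0.245 over all genes, a difference too small in this measure to give an order. Their median level, 31.4 TPM, was 99.3 TPM after rescaling, and their median protein-coding transcript share, 81.4%, was 60.4% in the second table. For these the cause was not tested beyond the construction of each alternative. No paired analysis was possible because there is 1 group. Batf3, with 17 to 46 counts per library, and Fosl1, with none, rest on the fewest counts over the 3 libraries together.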
